A study of Mus musculus with 12 samples.

Results

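The 10 mouse genes *Leng8*, *Khdc4*, *Usp39*, *Clk1*, *Clk2*, *Clk3*, *Clk4*, *Luc7l*, *Luc7l2* and *Luc7l3* encode proteins that regulate splicing or hold RNA in the nucleus, and they were taken by symbol from 35521 annotated genes. The choice rested on the level of *Leng8*, *Khdc4* and *Usp39* in primed cells against parental cells. Those contrasts are therefore only described here, and nothing is read from the calls made in them. RNA-Seq was done in 3 groups of 4 libraries of 4T1 cells, a mammary carcinoma line of BALB/c origin. Tu-Gr1+CD11b+-primed 4T1 cells (tumor-primed, 4T1_MDSC_T) had shared a Transwell with Gr1+ cells from 4T1 tumors for 48 hours. Spl-Gr1+CD11b+-primed 4T1 cells (spleen-primed, 4T1_MDSC_S) had shared one with Gr1+ cells from the spleens of tumor-bearing mice for the same time. Parental 4T1 cells were untreated, and nothing in the labels says whether they were kept in an empty Transwell. The membrane had 0.4 µm pores, the Gr1+ cells were isolated by magnetic column at day 21 after injection per the labels, and all groups carry the 4T1 genome with no engineered allele. The labels do not say whether the 4 libraries of a group came from separate cultures or how many mice gave the Gr1+ cells, so the spread between libraries may be technical.

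CLK kinases phosphorylate SR proteins, a family of serine- and arginine-rich factors that help to define exons, and they adjust splicing when cells change state. Transcripts of many splicing regulators keep 1 or more introns or skip an exon, which leaves RNA that stays in the nucleus or that is removed by nonsense-mediated decay (NMD), the pathway that destroys mRNA with an early stop codon. *Clk1* is a known case, in which introns 3 and 4 can be held and exon 4 can be skipped, and a transcript without exon 4 cannot make the kinase domain. *Leng8* encodes a PCI-domain protein that partners with Pcid2 in a relative of the TREX-2 export complex. *Khdc4* encodes a KH-domain splicing factor that binds Prp19. *Usp39* encodes a component of the U4/U6.U5 tri-snRNP, the particle that joins the spliceosome before catalysis. The 3 *Luc7l* genes encode proteins of the U1 snRNP that bear on the choice of 5′ splice sites.

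Exon 4 of each CLK gene is shown because both of its flanking introns were held in annotated transcripts of all 4 genes and because transcripts that skip it were measured. The sequences come from GENCODE M21 transcripts on GRCm38, read 5′ to 3′ on the gene's strand. Capitals mark the exon, and the 15 lower-case bases on each side are the ends of introns 3 and 4. The exons lie at chr1:58420121-58420211 on the minus strand for *Clk1*, chr3:89169615-89169702 on the plus strand for *Clk2*, chr9:57758627-57758723 on the minus strand for *Clk3* and chr11:51273078-51273168 on the plus strand for *Clk4*. All 4 are coding exons.
Clk1 exon 4: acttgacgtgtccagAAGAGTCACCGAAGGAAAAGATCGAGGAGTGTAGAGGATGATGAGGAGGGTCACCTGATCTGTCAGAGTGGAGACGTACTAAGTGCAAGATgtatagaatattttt
Clk2 exon 4: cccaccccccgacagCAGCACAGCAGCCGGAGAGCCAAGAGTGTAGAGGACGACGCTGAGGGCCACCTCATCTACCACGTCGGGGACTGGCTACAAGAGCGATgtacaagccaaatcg
Clk3 exon 4: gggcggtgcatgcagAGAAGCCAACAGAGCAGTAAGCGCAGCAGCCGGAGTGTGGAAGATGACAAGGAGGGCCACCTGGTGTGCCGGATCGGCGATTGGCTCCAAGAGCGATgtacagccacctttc
Clk4 exon 4: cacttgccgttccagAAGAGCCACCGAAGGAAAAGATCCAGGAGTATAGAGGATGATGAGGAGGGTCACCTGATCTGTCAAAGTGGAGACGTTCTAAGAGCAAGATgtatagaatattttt
The exons are 91, 88, 97 and 91 bases long in *Clk1* to *Clk4*, and each length leaves a remainder of 1 when divided by 3, so skipping the exon shifts the reading frame. *Clk1* and *Clk4* matched at 93.4% of the aligned bases of exon 4, while the other pairs matched at 63.0% to 67.3%. In *Clk1* and *Clk4* the first 15 bases of intron 4 were the same.

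The ends of 4 last introns are shown because transcripts that hold them carried many of the reads of *Leng8*, *Khdc4*, *Luc7l3* and *Clk3*. Each line gives 30 bases across a splice site, and capitals mark the first or last 2 bases of the intron.
Leng8 intron 15, 5′ end: tgatcaaaacGTatgtggcactgcactctg
Leng8 intron 15, 3′ end: ttctcctcttgtctccatAGcttccgccct
Khdc4 intron 13, 5′ end: ggaagccatgGTgagtacagtgcagctggg
Khdc4 intron 13, 3′ end: gtggttgttctctcttctAGattatccagc
Luc7l3 intron 10, 5′ end: tcagacagagGTaagtgtattgtttctcac
Luc7l3 intron 10, 3′ end: ccccaaattttgcattgtAGgactactgtt
Clk3 intron 12, 5′ end: acctctgaagGTcagtttctggctccccca
Clk3 intron 12, 3′ end: caccttgtgtccttgagcAGagttacatgc
Intron 15 of *Leng8* spans 1467 bases at chr7:4145474-4146940 on the plus strand. Intron 13 of *Khdc4* spans 777 bases at chr3:88710853-88711629 on the plus strand. The *Luc7l3* intron spans 1506 bases at chr11:94291579-94293084 on the minus strand and lies in the 3′ UTR. Intron 12 of *Clk3* spans 615 bases at chr9:57751122-57751736 on the minus strand. Apart from the *Luc7l3* intron, each lies between coding exons of the fully spliced transcript, and all 4 begin with GT and end with AG.

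Library totals ran from 24566183 to 31637755 assigned reads. The share of all reads on transcripts of the retained-intron and NMD classes, called noncoding here, was 5.64% to 5.83% in tumor-primed, 5.37% to 6.13% in spleen-primed and 3.93% to 4.35% in parental libraries. Mitochondrial genes held 2.09% to 3.15% of reads in primed and 4.24% to 6.73% in parental libraries. Parental replicate 2 had the highest noncoding share of the parental libraries. It was the parental library nearest to the primed groups in CPM for 10 of the 10 genes and had the highest noncoding share among parental libraries for 8 of them. The parental mean without it is therefore given for each transcript level and exon 4 share that moved by over 1.5 times. Among intron shares this was done for part of the introns only. The epithelial genes *Epcam*, *Krt8*, *Krt18*, *Krt7* and *Cdh1* were expressed in every library, whereas *Krt14* averaged 0.391 CPM in parental cells. The summed CPM of the epithelial list was 1837 to 2247, 2332 to 2514 and 2610 to 3894 in tumor-primed, spleen-primed and parental libraries, with log2 fold changes of -0.78 for *Krt8*, -0.68 for *Krt18* and -0.61 for *Krt7* in tumor-primed cells. *Cdh1* had -0.31 and *Krt14* -0.19 in tumor-primed cells. *Epcam* went the other way, with 0.11 in tumor-primed and 0.30 in spleen-primed cells. Of 19 granulocyte and myeloid markers, *Cd177*, *Mmp8*, *Ngp*, *Camp*, *Retnlg*, *Mpo*, *Elane* and *Tyrobp* had 0 reads in every library, which allows up to 3 reads, and *Ly6g* had at most 3. *Ltf* averaged 4.16, 1.86 and 1.79 CPM in the 3 groups (log2 fold change 1.21 in tumor-primed cells), and *S100a8* 2.83, 1.49 and 1.84 CPM (0.62). The summed CPM of the myeloid list was 154 to 189, 135 to 152 and 127 to 132 in the 3 groups, and most of it came from *Mmp9* (124 CPM on average in parental cells). The part of these differences between libraries in the results below was not tested.

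*Leng8* had 102, 108, 108 and 103 CPM (reads scaled to a common library size with TMM factors) in the tumor-primed libraries. The spleen-primed libraries held 88.6, 109.6, 114 and 110.2 CPM, and the parental libraries 25.6, 29.8, 23.9 and 25.7 CPM. Every primed library lay above every parental one. The log2 fold change from parental was 2.00 ± 0.08 (SE) in tumor-primed and 2.01 ± 0.08 in spleen-primed cells. *Leng8* lies at chr7:4137039-4148177 on the plus strand.

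*Khdc4*, at chr3:88685803-88712924, had 91.9, 92.7, 93.8 and 101 CPM in tumor-primed libraries. Spleen-primed libraries held 109, 112, 121 and 119 CPM of *Khdc4*, and parental libraries 34.1, 36.9, 29.7 and 26.3 CPM. The 3 groups did not overlap, with the spleen-primed group highest. Its log2 fold change from parental was 1.58 ± 0.09 (SE) in tumor-primed and 1.86 ± 0.09 in spleen-primed cells.

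*Usp39* ran the other way, with 48.5, 49.0, 48.2 and 48.8 CPM in tumor-primed libraries. It had 54.4, 53.5, 57.6 and 50.0 CPM in spleen-primed and 78.4, 73.3, 78.9 and 78.0 CPM in parental libraries. Tumor-primed libraries were the lowest and differed little among themselves. The log2 fold change from parental was -0.67 ± 0.05 (SE) in tumor-primed and -0.52 ± 0.05 in spleen-primed cells. *Usp39* lies at chr6:72318678-72345184 on the minus strand.

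Among the CLK genes, *Clk1* had 104, 115, 114 and 93.3 CPM in tumor-primed, 87.3, 86.6, 101 and 96.6 CPM in spleen-primed and 42.9, 52.3, 40.2 and 40.0 CPM in parental libraries. *Clk2* had 43.4, 49.3, 47.9 and 46.6 CPM in tumor-primed, 40.5, 49.8, 50.8 and 49.7 CPM in spleen-primed and 18.6, 22.7, 18.8 and 18.7 CPM in parental libraries. Both kinases were above parental in all 8 primed libraries, and the primed groups overlapped. Log2 fold changes from parental in tumor-primed and spleen-primed cells were 1.28 ± 0.09 and 1.08 ± 0.09 (SE) for *Clk1* and 1.25 ± 0.08 and 1.28 ± 0.08 for *Clk2*. *Clk3* ranged from 58.3 to 63.5 CPM in tumor-primed, 53.2 to 61.7 in spleen-primed and 39.1 to 42.8 in parental libraries. *Clk4* ranged from 41.3 to 50.7, 41.1 to 46.1 and 18.6 to 27.9 CPM in the same order. The log2 fold changes were smaller for *Clk3* (0.56 ± 0.06 and 0.52 ± 0.06) than for *Clk4* (0.99 ± 0.11 and 0.89 ± 0.11). The genes lie at chr1:58410189-58424066 (*Clk1*), chr3:89164795-89176921 (*Clk2*), chr9:57750624-57765860 (*Clk3*) and chr11:51261730-51281766 (*Clk4*).

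The *Luc7l* family was also higher in primed cells. *Luc7l* ranged from 81.6 to 87.3 CPM in tumor-primed, 82.4 to 86.9 in spleen-primed and 40.2 to 56.0 in parental libraries. *Luc7l2* ranged from 131 to 152, 132 to 139 and 94.4 to 114 CPM in the same order. For *Luc7l3* the ranges were 92.4 to 100.3, 104 to 112 and 56.8 to 63.6 CPM, and tumor-primed libraries lay below all spleen-primed ones. Log2 fold changes from parental in tumor-primed and spleen-primed cells were 0.79 ± 0.08 and 0.80 ± 0.08 (SE) for *Luc7l*, 0.49 ± 0.07 and 0.41 ± 0.07 for *Luc7l2* and 0.71 ± 0.05 and 0.88 ± 0.05 for *Luc7l3*. In *Luc7l2*, 6.57% of the 31-base words also occurred in other genes, chiefly *Gm11889*, so its reads may be divided less surely than those of the other 9 genes (0% to 1.34%). The 3 genes lie at chr17:26252896-26285504 (*Luc7l*), chr6:38551334-38609470 (*Luc7l2*) and chr11:94287890-94321988 (*Luc7l3*).

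**Figure D1:**
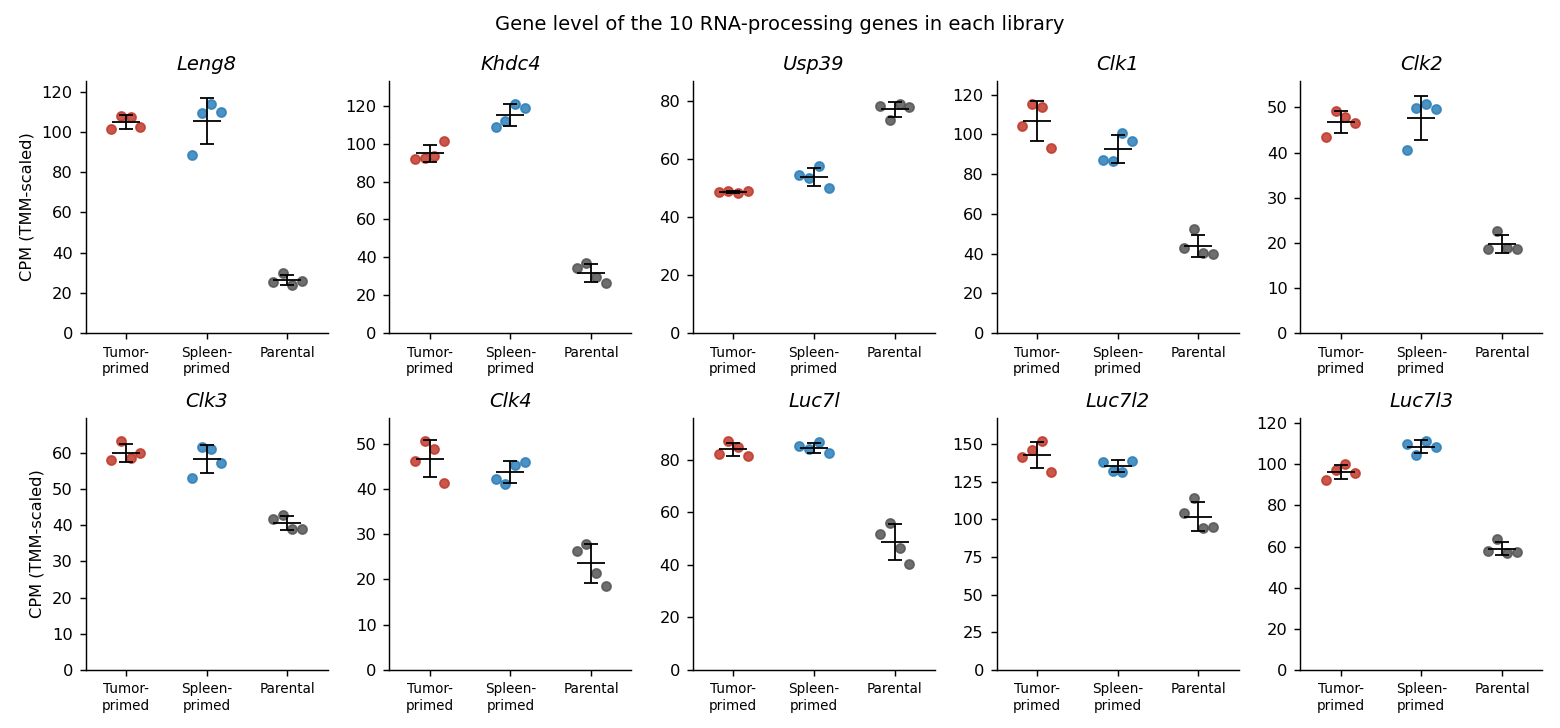
CPM of each of the 10 genes in each library (points), with the mean and SD of 4 libraries per group (black). The axes start at 0 and differ between genes. In 9 genes all primed libraries lie above the parental ones, and for *Usp39* they lie below, between 48.2 and 57.6 CPM against 73.3 to 78.9. The genes were chosen with these contrasts in view, and the share of all genes in such a position is not given.

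Of the 10 genes, 9 passed the threshold as higher and 1 as lower than parental in tumor-primed cells, where 31.2% of all 12555 genes tested were called higher and 28.0% lower. In spleen-primed cells the counts were also 9 and 1, beside 25.7% and 22.5% of all genes. The rule used these contrasts, so nothing is read from the counts, and both contrasts share the 4 parental libraries. The share of all genes that lie outside the parental range is not given here, so nothing is read from those positions either. An unadjusted p under 0.05 in edgeR's quasi-likelihood test was reached by 63.4% and 55.1% of all genes in tumor-primed and spleen-primed cells. Leaving out parental replicate 2 left 10 genes past the threshold in both, and the parental mean moved, for instance, from 43.8 to 41.0 CPM for *Clk1* and from 19.7 to 18.7 CPM for *Clk2*.

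Levels per length were compared with the authors' TPM, which is scaled for transcript length and library size. In parental cells *Usp39* (44.9 ± 2.5, SD, n = 4) and *Clk3* (43.4 ± 7.2) led, then *Luc7l2* (35.6 ± 7.1), *Luc7l3* (31.2 ± 4.5), *Clk1* (29.6 ± 6.6), *Luc7l* (27.6 ± 4.3), *Clk4* (16.4 ± 5.0), *Khdc4* (11.9 ± 2.9), *Clk2* (11.7 ± 2.7) and *Leng8* (9.5 ± 2.4). Apart from *Luc7l* and *Clk4*, neighbours in this order differed by less than the sum of their SDs. The order differed in tumor-primed cells, where *Clk3* (94.6 ± 5.0) and *Clk1* (93.8 ± 9.1) were highest and *Usp39* (40.2 ± 1.7) and *Clk2* (37.5 ± 2.3) lowest. In spleen-primed cells *Usp39* averaged 40.3 ± 3.0 TPM. Its spleen-primed libraries then overlapped the parental ones, with 43.7 in spleen-primed replicate 1 and 42.4 in parental replicate 4, which they did not in CPM. A gene's TPM also depends on how long its measured transcripts are, so it weighs short transcripts more than CPM does. TPM also carries no TMM factors, which were 1.01 to 1.05 in primed and 0.880 to 0.951 in parental libraries. The part of each in the *Usp39* values was not tested.

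The question of which transcripts carry the additional reads was addressed by summing reads over the transcript classes of GENCODE M21. In *Clk1*, 53.8% of the difference in mean CPM between tumor-primed and parental cells lay on retained-intron transcripts, 25.7% on NMD transcripts and 17.0% on protein-coding transcripts. *Clk2* divided in a like way, with 46.7%, 41.7% and 11.6%. For *Clk3* and *Clk4* the retained-intron class held 54.6% and 48.0% of the difference, and the protein-coding class 40.8% and 45.2%. The protein-coding class held only 1.94% of the difference in *Luc7l* and 0.97% in *Luc7l2*. Spleen-primed cells gave protein-coding shares of the difference from parental of 10.8%, 15.0%, 36.1% and 35.0% for *Clk1* to *Clk4*, 25.4% for *Luc7l* and 19.1% for *Luc7l2*. For *Khdc4* it was NMD transcripts that held 75.7% of its difference in tumor-primed and 65.8% in spleen-primed cells. The lower *Usp39* level lay almost wholly on protein-coding transcripts (96.8% and 92.5%).

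With protein-coding transcripts alone, the log2 fold change from parental fell to 0.40 in tumor-primed and 0.23 in spleen-primed cells for *Clk1*, to 0.29 and 0.36 for *Clk2*, and to 0.07 and 0.33 for *Luc7l*. For *Luc7l2* it was 0.05 and 0.13. *Khdc4* kept 0.60 and 1.06. The values of *Leng8* (1.95 and 2.00) and *Luc7l3* (0.71 and 0.91) stayed close to those over all transcripts. In these last 2 genes a protein-coding transcript with many reads (*Leng8-201* and *Luc7l3-202*) itself holds an intron, so the class alone does not separate spliced from intron-holding RNA.

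**Figure D2:**
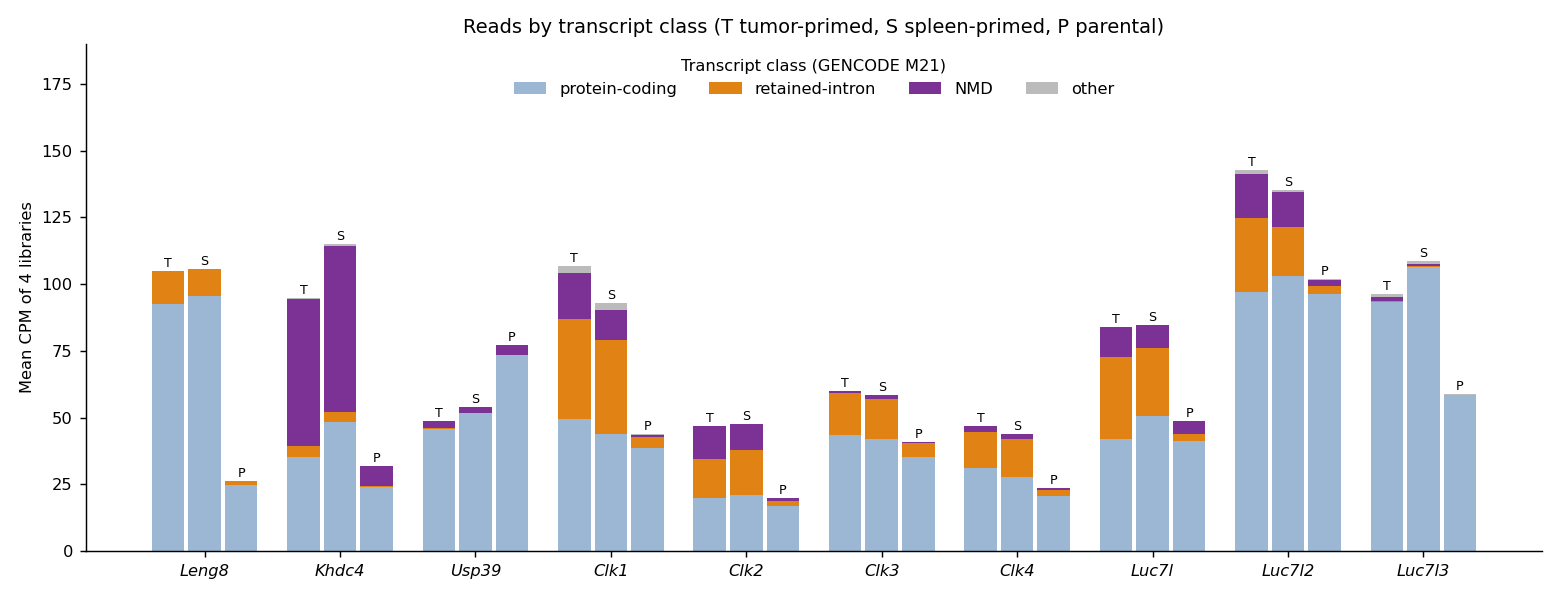
Mean CPM of 4 libraries by transcript class, stacked for tumor-primed (T), spleen-primed (S) and parental (P) cells. The blue protein-coding part of *Luc7l2* is near 97 CPM in T and 96 CPM in P, while its retained-intron part is 28.1 CPM in T and 2.69 CPM in P.

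The noncoding share of a gene's reads was computed as a measure that does not depend on the gene's level. In *Clk2* it was 59.4%, 56.7%, 58.2% and 55.2% in tumor-primed libraries, 50.9%, 54.1%, 57.9% and 60.1% in spleen-primed libraries and 8.70%, 27.2%, 7.16% and 12.98% in parental libraries. The parental value of 27.2% came from replicate 2, and without it the parental mean was 9.61% in place of 14.0%. *Clk1* had 52.5% ± 2.7, 51.3% ± 3.6 and 10.4% ± 4.6 (SD, n = 4) in the 3 groups. *Khdc4* had 62.8% ± 3.6, 57.6% ± 0.8 and 24.2% ± 8.8. The shares were 27.9% ± 0.4, 28.4% ± 1.5 and 12.9% ± 2.5 in *Clk3*, and 33.5% ± 2.2, 36.6% ± 2.0 and 11.96% ± 2.7 in *Clk4*. The *Clk3* values depended on the unit, for as shares of TPM they were 70.0% ± 1.5, 66.5% ± 3.1 and 62.5% ± 5.3, and the spleen-primed libraries then overlapped the parental ones. *Luc7l* had 50.0% ± 5.8, 40.4% ± 4.8 and 14.3% ± 7.9, and *Luc7l2* 31.3% ± 5.5, 23.4% ± 3.8 and 4.80% ± 2.7. The low shares of *Leng8* (11.8% ± 2.3, 9.4% ± 2.0 and 5.8% ± 2.9) and *Luc7l3* (2.1%, 1.0% and 0.022% on average) leave out the intron-holding transcripts that GENCODE classes as protein-coding. *Usp39* had 6.1% ± 1.4, 4.0% ± 2.8 and 5.0% ± 1.7, and its groups overlapped. Over the 10 genes the median change was 23.99 points in tumor-primed and 21.6 points in spleen-primed cells, against 2.17 and 2.02 points over 5074 genes with reads of both kinds. The share lay above every parental library for 9 of the 10 genes in tumor-primed and 7 in spleen-primed cells, beside 46.5% and 42.5% of all 5074 genes. Since the chosen genes were picked on these contrasts, the counts are a description.

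Single transcripts showed where the reads lay. *Leng8-201*, a transcript of 5105 bases whose coding sequence ends inside intron 15, had 74.2, 82.4, 72.7 and 76.8 CPM in tumor-primed libraries. It had 59.5, 73.3, 83.1 and 75.0 CPM in spleen-primed and 11.2, 14.1, 7.3 and 5.5 CPM in parental libraries. The fully spliced *Leng8-203* of 3620 bases averaged 11.3, 17.5 and 15.2 CPM in tumor-primed, spleen-primed and parental cells, and both primed groups overlapped the parental one. *Leng8-204*, a retained-intron transcript that holds introns 11 and 15, averaged 9.99, 7.48 and 1.30 CPM.

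*Khdc4-206*, the NMD transcript that holds intron 13, had 47.3, 52.3, 48.1 and 46.6 CPM in tumor-primed, 49.9, 55.6, 63.5 and 62.8 CPM in spleen-primed and 5.4, 7.1, 4.1 and 1.9 CPM in parental libraries. The fully spliced *Khdc4-201* averaged 34.6, 47.6 and 25.0 CPM. All spleen-primed libraries of *Khdc4-201* lay above the parental ones, and tumor-primed libraries overlapped them. *Khdc4-203*, another NMD transcript, had 0 in 5 of 12 libraries and averaged 5.22, 2.70 and 2.91 CPM.

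Transcripts of the kinases divided by class in the same way. *Clk1-201*, the coding transcript, averaged 48.4, 43.0 and 40.4 CPM, whereas the retained-intron transcripts *Clk1-204* (22.9, 21.6 and 2.27 CPM) and *Clk1-202* (12.2, 9.83 and 1.39 CPM) were several times higher in primed than in parental cells. For *Clk2* the coding *Clk2-203* averaged 13, 13.4 and 13.4 CPM, the NMD transcript *Clk2-204* 12, 9.66 and 0.98 CPM, and the retained-intron *Clk2-207* 9.02, 9.60 and 0.929 CPM. Without parental replicate 2 the parental means were 1.49 CPM for *Clk1-204*, 0.498 CPM for *Clk2-204* and 0.393 CPM for *Clk2-207*. The coding *Clk3-201* was lower in primed cells (19.2, 17.0 and 25.0 CPM), and the 8 primed libraries did not overlap the parental ones. *Clk3-205*, annotated as coding but holding intron 12, was higher (22.8, 23.1 and 12.04 CPM), and *Clk3-202* averaged 6.03, 4.87 and 3.94 CPM. *Clk4-201* averaged 21.1, 19.1 and 18.9 CPM, the retained-intron *Clk4-213* 9.50, 10.3 and 1.42 CPM, and *Clk4-203*, which skips exons 2 and 4 but is classed as coding, 9.03, 7.77 and 2.65 CPM.

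In the *Luc7l* family, the retained-intron transcript *Luc7l-204* averaged 23.9, 20.05 and 1.98 CPM, beside 26.8, 29.1 and 22.4 CPM for the coding *Luc7l-202* and 11.4, 17.1 and 17.9 CPM for *Luc7l-201*. Without parental replicate 2 the parental mean of *Luc7l-204* was 1.26 CPM. *Luc7l-204* holds no whole intron of *Luc7l-202*, and parts of introns were not measured. *Luc7l2-208*, *Luc7l2-207* and *Luc7l2-213* are coding and had the most reads of that gene, with averages of 39.1, 43.1 and 49.4 CPM, 41.2, 43.1 and 35.6 CPM, and 12.7, 13.8 and 15.0 CPM. *Luc7l3-202*, which holds intron 10, averaged 33.3, 40.7 and 2.99 CPM, while *Luc7l3-203*, which splices it, averaged 37.5, 45.2 and 49.5 CPM and *Luc7l3-209* 19.9, 17.5 and 6.41 CPM. For *Usp39*, *Usp39-201* (44.9, 50.8 and 76.7 CPM) held nearly all reads, and the other transcripts, *Usp39-203* (2.46, 2.06 and 3.88 CPM) and *Usp39-202* (0.475, 0.0355 and 0.190 CPM), held few. Parental replicate 2 was the only parental library with reads of *Usp39-202*.

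Of 102 annotated transcripts of the 10 genes, 69 passed the filter on low counts. Among the 22 retained-intron transcripts that passed, 20 in tumor-primed and 21 in spleen-primed cells lay above all parental libraries. The same held for 9 and 5 of 12 NMD transcripts, and for 10 and 11 of 29 protein-coding transcripts, of which 4 and 2 lay below. Over all 38164 transcripts tested, 21.8% lay above and 15.2% below all parental libraries in tumor-primed cells, and 18.3% and 12.8% in spleen-primed cells. These shares cover every class, with 23879 protein-coding transcripts, and the shares within each class are not given. Median log2 fold changes of the retained-intron transcripts were 2.87 and 2.81 in the 10 genes, against 1.78 and 1.69 over all 7939 retained-intron transcripts tested. For NMD transcripts they were 2.56 and 2.15, against 0.32 and 0.31 over 2578. Retained-intron transcripts as a class had higher levels in primed cells, and transcripts that passed only through reads in primed libraries had to differ.

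The share of transcript molecules that held an intron was computed from TPM, among the transcripts that either hold or splice it. For intron 15 of *Leng8* it was 83.8%, 88.5%, 81.0% and 82.8% in tumor-primed libraries. In spleen-primed libraries it was 69.7%, 74.3%, 79.8% and 78.6%, and in parental libraries 39.6%, 48.5%, 25.2% and 18.8%. The 3 groups did not overlap, with the tumor-primed group highest, and the parental mean was 27.9% without replicate 2 in place of 33.0%. Intron 13 of *Khdc4* was held in 48.8%, 55.5%, 50.3% and 41.7% of molecules in tumor-primed, 42.5%, 46.7%, 50.1% and 51.2% in spleen-primed and 12.8%, 15.8%, 10.8% and 5.70% in parental libraries. The primed groups overlapped, and both lay above the parental one.

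The 3′ UTR intron of *Luc7l3* was held in 33.3% ± 3.5, 33.5% ± 2.5 and 3.33% ± 2.9 (SD, n = 4) of molecules in tumor-primed, spleen-primed and parental cells, and without parental replicate 2 the parental mean was 2.20%. Intron 12 of *Clk3* was held in 49.7% ± 4.4, 52.1% ± 2.3 and 33.1% ± 4.5, the smallest difference from parental among the 4 last introns. Intron 3 of *Clk1*, upstream of exon 4, was held in 19.95% ± 1.2, 21.1% ± 1.1 and 2.78% ± 1.6. For introns 4 and 6 of *Clk1* the values were 18.3%, 18.4% and 2.69%, and 15.0%, 15.6% and 2.66%. Intron 4 of *Clk2* was held in 29.95% ± 1.3, 35.5% ± 5.9 and 3.41% ± 2.8, and introns 3 and 4 of *Clk4* in 17.5% ± 1.3, 20.7% ± 2.3 and 3.66% ± 1.3, since *Clk4-213* holds both. Without parental replicate 2 the parental mean of *Clk2* intron 4 was 2.11%. Intron 3 of *Clk2* was held in 12.5% in that library and in 1.22%, 1.53% and 2.72% in the other parental libraries. Its lowest spleen-primed value was 13.4%, in replicate 1. For each of these introns all primed libraries lay above all parental libraries, as they did for introns 12 of *Clk1*, 3 of *Clk2*, 3 and 4 of *Clk3* and 7 and 8 of *Clk4*. Other introns of these genes overlapped parental libraries. Intron 12 of *Leng8* (16.5%, 17.4% and 7.86%), intron 7 of *Leng8* (1.45%, 0.706% and 0.517%) and intron 11 of *Clk2* (3.05%, 6.60% and 2.66%) did so in both primed groups. Intron 11 of *Leng8* (8.87%, 6.41% and 3.62%) overlapped in spleen-primed cells and intron 10 of *Clk1* (2.16%, 2.97% and 0.718%) in tumor-primed cells. The files carry no error for dividing reads between overlapping transcripts, so these shares are given without a test. Intron shares were not computed for other genes, so these positions, and that of *Leng8* intron 15, only describe the genes shown. Over all 7939 retained-intron transcripts tested, the median log2 fold change from parental was 1.78 in tumor-primed and 1.69 in spleen-primed cells.

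**Figure D3:**
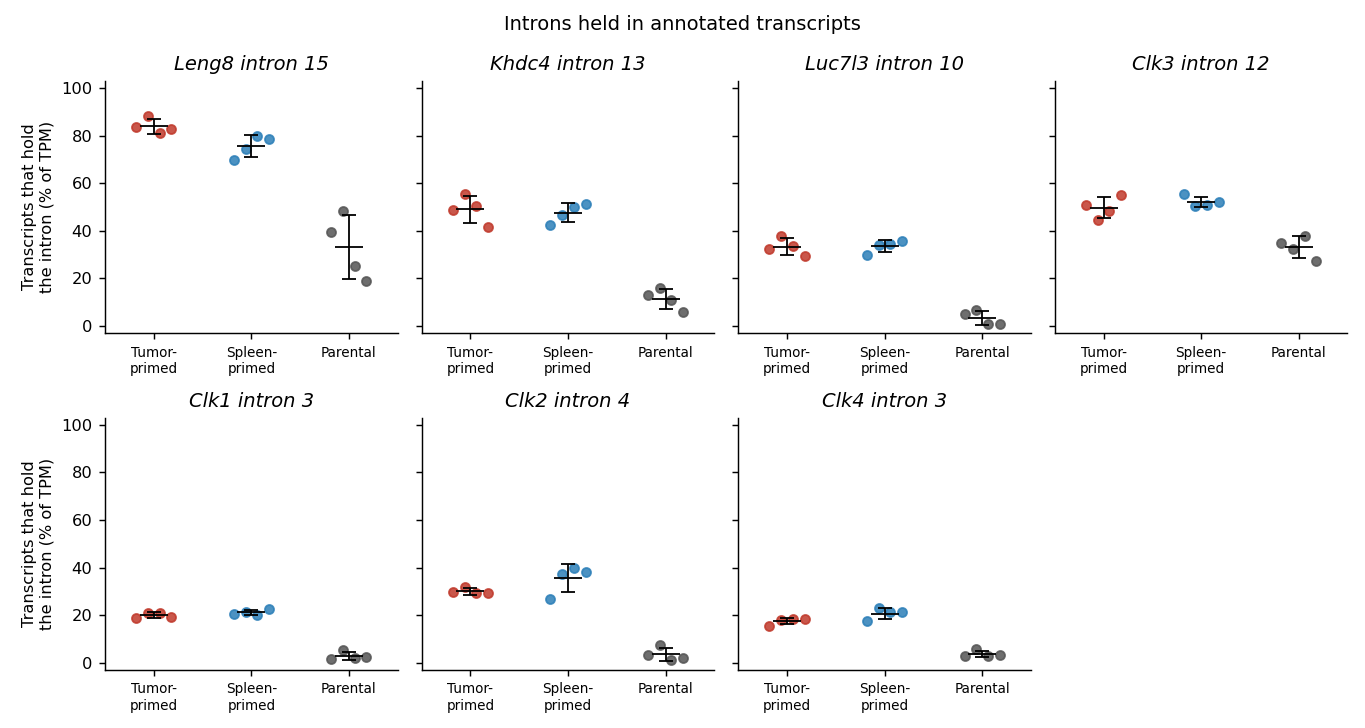
Percent of transcript molecules (TPM) that hold a given intron, among transcripts that hold or splice it, in each library (points), with the mean and SD of 4 libraries per group (black). *Leng8* intron 15 runs from 69.7% to 88.5% in primed and from 18.8% to 48.5% in parental libraries.

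Exon 4 of the CLK genes, printed above, was spliced in by a smaller share of molecules in primed cells. Shares were taken among transcripts with exon 4 spliced in, exon 4 skipped or intron 3 or 4 held. Other transcripts of these genes, such as *Clk1-202* and *Clk3-202*, were left out of the total. In *Clk1* it was spliced in by 64.7%, 57.3%, 60.4% and 64.3% of molecules in tumor-primed, 62.3%, 70.6%, 63.3% and 62.7% in spleen-primed and 94.6%, 91.1%, 97.6% and 97.8% in parental libraries. In *Clk2* the values were 48.2%, 47.4%, 47.6% and 52.1%, then 53.0%, 50.9%, 45.0% and 45.5%, then 96.6%, 82.4%, 97.1% and 91.7%. The primed groups overlapped each other in both genes and lay below every parental library. *Clk3* kept the exon most often (82.0% ± 1.5, 79.3% ± 3.5 and 97.1% ± 2.8), and *Clk4* had the lowest parental value (49.9% ± 3.3, 50.3% ± 4.7 and 76.3% ± 4.3).

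Among the molecules counted, the rest either skipped the exon or held a flanking intron. Skipping accounted for 23.0%, 17.9% and 2.03% in *Clk1*, 30.3%, 24.5% and 4.87% in *Clk2*, 7.89%, 9.92% and 0.884% in *Clk3* and 39.6%, 36.7% and 20.8% in *Clk4*, in tumor-primed, spleen-primed and parental cells. In *Clk3* the only parental library with any skipping was replicate 2, at 3.54%, and without it the parental mean of *Clk2* skipping was 2.81%. Intron 3 or 4 was held in 15.3%, 17.3% and 2.71% in *Clk1*, 20.9%, 26.9% and 3.17% in *Clk2*, 10.1%, 10.8% and 2.03% in *Clk3* and 10.6%, 13% and 2.87% in *Clk4*. Without parental replicate 2 the parental value of *Clk2* was 2.06%. For both routes and all 4 genes, every primed library lay above every parental library. Such shares were not computed for exons of other genes, so this only describes the CLK genes. Skipping transcripts were of the NMD class in *Clk1* (*Clk1-210*) and *Clk2* (*Clk2-204*), whereas *Clk4-203* is classed as coding. The sizes depended on the unit. As shares of reads, skipping in *Clk3* was 1.85%, 2.36% and 0.207% and rested on *Clk3-209*, with 21.6 reads per library on average. Held introns in *Clk4* were 22.5%, 26.3% and 5.91% of reads. For these 2 shares the primed libraries also lay above the parental ones in reads.

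**Figure D4:**
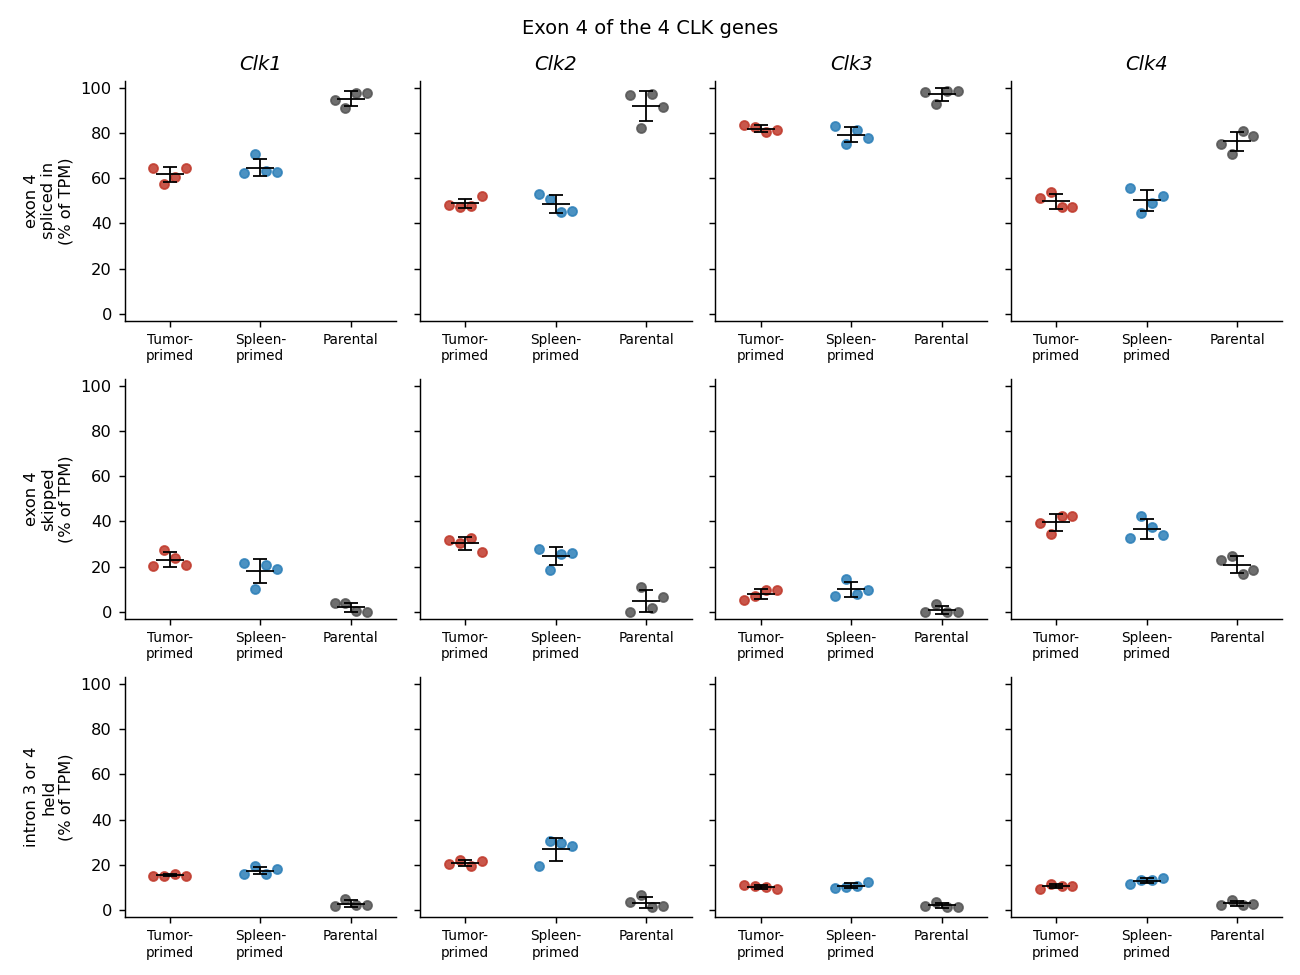
Percent of transcript molecules (TPM) of each CLK gene, among those with exon 4 spliced in, exon 4 skipped or intron 3 or 4 held. Rows show exon 4 spliced in (top), exon 4 skipped (middle) and intron 3 or 4 held (bottom). Points are libraries, and black marks give the mean and SD of 4 libraries per group. Exon 4 is spliced in by 82.4% or more of *Clk1*, *Clk2* and *Clk3* molecules in parental libraries and by 44.5% to 83.7% across the 4 genes in primed libraries.

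The primed groups were then compared with each other, a contrast that played no part in the choice of genes. None of the 10 genes differed between tumor-primed and spleen-primed cells at an adjusted p under 0.05 in edgeR's quasi-likelihood test, while 4.66% of all 12555 genes were called higher and 2.97% lower. At an unadjusted p under 0.05 there were 4 of the 10, and 22.6% of all genes. *Luc7l3* (log2 fold change -0.17, 95% CI -0.28 to -0.06, adjusted p = 0.0541), *Khdc4* (-0.28, -0.46 to -0.10, adjusted p = 0.0568) and *Usp39* (-0.15, -0.25 to -0.04, adjusted p = 0.0844) were lower in all tumor-primed libraries than in all spleen-primed ones. Such a lower, non-overlapping position held for 3 of the 10 genes and for 8.51% of all genes. *Clk1* had a log2 fold change of 0.20 (0.01 to 0.40, adjusted p = 0.208) with overlapping groups.

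The calls on *Khdc4*, *Luc7l3* and *Usp39* depended on the setting. DESeq2 called *Khdc4* and *Luc7l3* lower (adjusted p = 0.0168 and 0.00776), and over all settings the adjusted p ran from 0.0108 to 0.149 for *Khdc4*, from 0.00776 to 0.464 for *Luc7l3* and from 0.0417 to 0.721 for *Usp39*. In edgeR's quasi-likelihood test, *Khdc4* passed without tumor-primed replicate 4 (adjusted p = 0.0491), and *Khdc4* and *Luc7l3* passed without parental replicate 2 (0.0273 and 0.0309) or parental replicate 4 (0.0178 and 0.04996). *Usp39* passed without spleen-primed replicate 4 (adjusted p = 0.0417). For *Leng8* the difference was -0.01 (-0.18 to 0.16, adjusted p = 0.969), which leaves room for a change of either sign within that interval. The intervals were -0.20 to 0.15 for *Clk2*, -0.08 to 0.17 for *Clk3*, -0.13 to 0.32 for *Clk4*, -0.18 to 0.15 for *Luc7l* and -0.07 to 0.22 for *Luc7l2*.

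**Figure D5:**
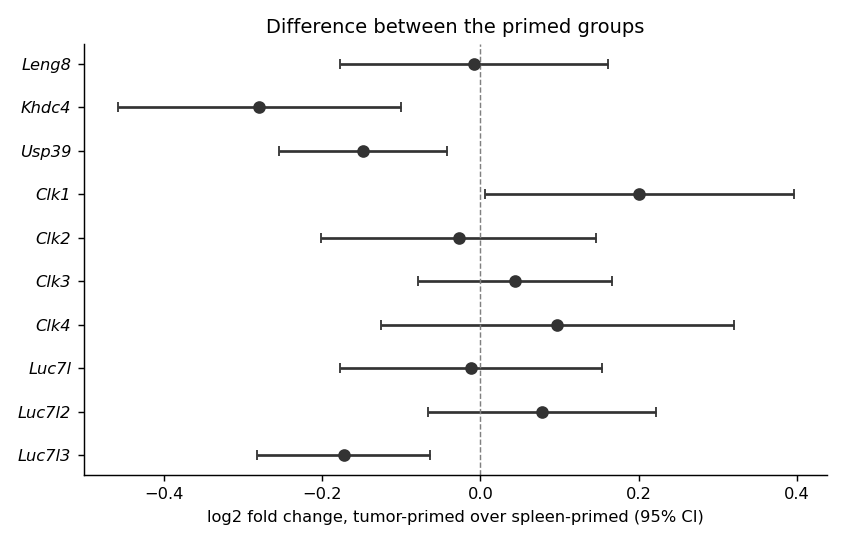
Log2 fold change of each gene between tumor-primed and spleen-primed cells (points), with its 95% confidence interval (bars). Intervals of *Khdc4*, *Usp39* and *Luc7l3* lie below 0 and that of *Clk1* above it, and none of the 10 passed the threshold after adjustment over all genes.

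The noncoding share did not differ past the threshold between the primed groups for any of the 10 genes in limma's test, nor for any of the 5074 genes (0%), although 137 genes and 0 of the 10 had an unadjusted p under 0.05. Outside *Usp39* and *Luc7l3*, whose shares were low, the largest differences in log2 odds were 0.57 (95% CI -0.33 to 1.48) for *Luc7l2* and 0.56 (-0.41 to 1.54) for *Luc7l*. *Khdc4* was the 1 gene whose tumor-primed shares all lay above the spleen-primed ones, beside 3.29% of all genes, with 0.32 (-0.30 to 0.94). Among single transcripts, 0.566% of 38164 were called between the primed groups and 0 of the 69. At an unadjusted p under 0.05 there were 6, all protein-coding, namely *Leng8-203*, *Khdc4-201*, *Usp39-201*, *Clk1-201*, *Luc7l-201* and *Luc7l3-203*. *Khdc4-201* had a log2 fold change of -0.46 (adjusted p = 0.108 in edgeR's quasi-likelihood test) and was called by DESeq2 (adjusted p = 0.00213). *Leng8-203*, the spliced transcript, had -0.64 (adjusted p = 0.285), and its tumor-primed libraries all lay below the spleen-primed ones.

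Other genes of the machinery were counted from 7 hand-written lists with 105 genes, of which 102 were tested. Their levels sum every transcript class and were not divided, so a change does not separate coding from noncoding transcripts. Against parental, 24 rose and 44 fell in tumor-primed cells, and 22 rose and 31 fell in spleen-primed cells, in edgeR's quasi-likelihood test. Background shares for each direction are given above. With a library left out, 56 to 74 list genes were called in tumor-primed and 43 to 64 in spleen-primed cells. Among U4/U6.U5 tri-snRNP proteins, the partners of Usp39, 13 of 17 fell and none rose in tumor-primed cells, and 11 fell and 1 rose in spleen-primed cells. *Txnl4a*, a U5 component, fell from 54.1 to 30.6 and 35.8 CPM (log2 fold change -0.82 ± 0.07 and -0.59 ± 0.07, SE), and *Eftud2*, the U5 GTPase, from 343 to 246 and 272 CPM (-0.48 ± 0.05 and -0.33 ± 0.05). The median log2 fold change of the list was -0.32 and -0.23, against 0.02 for all genes in both contrasts.

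Of 14 genes of the PRP19 complex and its associates, 9 and 8 fell and none rose. *Prpf19*, the ubiquitin ligase of the complex, had -0.39 ± 0.05 (SE) and *Plrg1* -0.38 ± 0.05 in tumor-primed cells, and *Cdc5l* had -0.29 ± 0.05 and *Crnkl1* -0.27 ± 0.04 in spleen-primed cells. SR and SR-related proteins, the substrates of CLK kinases, went the other way, with 10 of 15 higher and 1 lower in tumor-primed cells and 9 higher and none lower in spleen-primed cells. *Srsf11* rose from 119 to 245 and 228 CPM (1.04 ± 0.07 and 0.93 ± 0.07), and *Srsf6* from 244 to 341 and 345 CPM (0.49 ± 0.05 and 0.50 ± 0.05).

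The list of U1 snRNP and Sm proteins, which includes U1 partners of the Luc7l proteins, was mixed, with 4 of 15 higher and 7 lower in tumor-primed cells and 4 and 5 in spleen-primed cells. *Tial1* (0.82 ± 0.05 and 0.91 ± 0.05, SE) and *Tia1* (1.28 ± 0.08 and 1.11 ± 0.08), which help U1 bind weak 5′ splice sites, both rose. Among 13 genes of TREX-2 and nuclear RNA retention or decay, the setting of Leng8, 5 rose and 6 fell in tumor-primed and 4 rose and 2 fell in spleen-primed cells. *Zfc3h1*, which links nuclear RNA to the exosome, rose from 25.1 to 58.4 and 65.9 CPM (1.22 ± 0.11 and 1.39 ± 0.11), and *Zcchc8*, a partner of the exosome helicase, had 0.27 ± 0.06 and 0.36 ± 0.06.

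Of other kinases that act on SR proteins or in splicing, 2 of 13 were higher and 3 lower in tumor-primed cells, and 1 was higher and 2 were lower in spleen-primed cells. *Dyrk1a* (-0.44 ± 0.08 and -0.49 ± 0.08, SE) fell in both, *Dyrk3* fell in tumor-primed cells (-0.41 ± 0.07) and *Prpf4b* rose in spleen-primed cells (0.34 ± 0.07). Of 15 NMD factors and exon junction proteins, 3 rose and 5 fell in tumor-primed and 3 rose and 3 fell in spleen-primed cells. *Smg6*, the NMD endonuclease, rose (0.51 ± 0.07 and 0.46 ± 0.07), and *Rbm8a*, of the exon junction complex, fell (-0.43 ± 0.06 and -0.36 ± 0.06). Between the primed groups, 2 of the 102 were called, both lower in tumor-primed cells, 1 in the tri-snRNP list and 1 in the TREX-2 list, and 19 had an unadjusted p under 0.05. The TREX-2 gene was *Sac3d1* (log2 fold change -0.53 ± 0.13, SE, adjusted p = 0.0249), whose groups overlapped and which was named after its value was seen. The tri-snRNP gene was *Snu13*, at 86.0 ± 4.5 and 102 ± 7.1 CPM (SD, n = 4 each) in tumor-primed and spleen-primed cells (log2 fold change -0.24 ± 0.06, SE, adjusted p = 0.0241).

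Outside the 10 genes, those most like *Leng8* over the 12 libraries, by Pearson's r of log2 CPM, were *Ddb2*, *Cdc7*, *Mid1*, *Rgs11* and *Slc9a5* (r of 0.995 to 0.999). For *Khdc4* they were *Tial1*, *Pank4*, *Rsrp1*, *Nxf1* and *Med20*, and for *Usp39* *Zfp706*, *Abcf2*, *Hars*, *Itgb7* and *Cavin1*. Within the 10 genes, *Clk2* had r of 0.996 with *Leng8*, and *Luc7l3* 0.991 with *Khdc4*. The 12 points fall into 3 groups and share libraries and depth, and no test was made. *Ddb2* averaged 15.9, 16.3 and 5.46 CPM in tumor-primed, spleen-primed and parental cells, and *Rsrp1* 95.4, 107 and 9.55 CPM.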

How the data were processed

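The authors deposited a table for each library with the estimated count of reads on every Ensembl transcript, not normalized, and its TPM, scaled for length and depth. They also deposited a table of normalized counts, a signal per gene, used here only in an added alternative. The submitters' processing notes name FastQC, Trimmomatic 0.39, Salmon 1.4.0 and GRCm38 (mm10). The kit was stranded. The study's coculture methods give another day of Gr1+ cell isolation than the labels, while a figure legend of the study gives the labels' day.

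Estimated counts of 116021 of 117081 transcripts were joined to GENCODE M21 (0.326% to 0.419% of reads were not), summed per gene and class, and rounded. filterByExpr, TMM and edgeR 4.0.16 (quasi-likelihood, all 12 libraries, Benjamini-Hochberg, threshold 0.05) in R 4.3.3 gave fold changes for 12555 genes and 38164 transcripts. Noncoding shares were tested with limma 3.58.1 on log2 odds with 0.5 added, for 5074 genes with at least 10 reads of each kind on average. DESeq2 1.42.0 served as an alternative. Python 3.11.15, pandas 2.3.3 and matplotlib 3.10.9 prepared tables and plots. The scripts were tested on simulated data. The 4 libraries of a group set the precision, and dividing reads among transcripts adds an error not in the files.

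The genes and lists were chosen with earlier results of these data known. Named beside the 10 genes were, per list and comparison, up to 2 called genes with the smallest p and groups that do not overlap, the 5 genes outside the 10 most like *Leng8*, *Khdc4* and *Usp39*, and each gene's 3 transcripts with the most reads. Nuclear long noncoding RNAs were not analysed here.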

Additional observations from a re-analysis of the deposited data

Results flagged for a closer look

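In 117 groups of 4 libraries (CPM, noncoding share, exon 4 and intron shares), 13 had a library whose gap to its nearest neighbour, as a share of the range, exceeded Dixon's 95% limit for 4 values. Chance gives about 1 in 20, and many of these groups share genes and libraries. Parental replicate 2 was the library in 7 of them. It had 73.3 CPM of *Usp39* (others 78.0 to 78.9), 22.7 CPM of *Clk2* (18.6 to 18.8) and 63.6 CPM of *Luc7l3* (56.8 to 57.6). Its molecules kept *Clk3* exon 4 in 92.9% (98.1% to 98.8%) and skipped it in 3.54% (0 in the others), and they held *Clk1* intron 4 in 4.93% (1.68% to 2.22%) and intron 3 in 5.19% (1.70% to 2.22%).

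Spleen-primed replicate 1 was low in *Clk2* (40.5 CPM, others 49.7 to 50.8) and in the noncoding share of *Luc7l* (33.2%, others 42.1% to 43.3%). Spleen-primed replicate 2 had a noncoding share of 3.50% in *Luc7l3* (others 0.0413% to 0.332%) and kept *Clk1* exon 4 in 70.6% (62.3% to 63.3%). Tumor-primed replicate 3 held *Clk1* intron 6 in 17.0% (14.1% to 14.5%), and parental replicate 4 had a *Luc7l3* noncoding share of 0.0881% (0 in the others). The causes were not tested.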

How the results depend on the processing

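Against parental, 10 of the 10 genes kept their direction and their call in both contrasts under DESeq2, RLE factors, no filter, only the 8 libraries compared, the authors' normalized counts and each library left out, and 8 and 9 did so with protein-coding transcripts only. Of the log2 fold changes under these alternatives, 13 of 70 in tumor-primed and 11 of 70 in spleen-primed cells moved by more than the spread, all with protein-coding transcripts only or the authors' normalized counts, an alternative added after the data were seen. The cause was not tested. Since the genes were chosen on these contrasts, the kept calls are a description and lend no support.

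Between the primed groups, 0 of the 10 genes were called, against 2 with DESeq2 (both lower), 1 with only the 8 libraries compared, 1 with protein-coding transcripts only and 0 to 2 when a library was left out. Of the list genes, 2 were called, against 7 with DESeq2, 1 without a filter, 1 with only the 8 libraries, 1 with the authors' normalized counts and 0 to 6 when a library was left out (0 without tumor-primed or spleen-primed replicate 3, 6 without replicate 4 of either). DESeq2 called 1 transcript, *Khdc4-201*. Small fold changes turned sign. *Leng8* had 0.00061 with DESeq2, 0.0014 with RLE factors, 0.0089 without a filter, 0.0064 with only the 8 libraries and -0.084 to 0.047 when a library was left out. *Luc7l* had 0.0050 without a filter, 0.0029 with only the 8 libraries and -0.031 to 0.018 when a library was left out. *Clk2* had -0.099 to 0.021 when a library was left out, and *Luc7l2* had -0.085 with protein-coding transcripts only. Leaving out libraries kept 9 genes with a noncoding share above parental in tumor-primed cells and 7 to 8 in spleen-primed cells, and TPM in place of reads gave 8 and 6.

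Whether the replicate numbers pair the libraries is not settled here. Correlations of same-numbered deviations ran from -0.164 to 0.016 between the primed groups and -0.156 to 0.072 between spleen-primed and parental libraries. In those contrasts no library correlated best with its own number. Between tumor-primed and parental libraries the correlations ran from 0.084 to 0.148, and replicates 1, 2 and 3 correlated best with their own number. With the replicate block, 10 and 10 genes were called against parental, 0 between the primed groups, and 1 list gene between the primed groups.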
